A study of Sus scrofa with 12 samples.

Results

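Interferon-stimulated genes and RNA sensors are described here as 9 pig genes chosen by name: the RNA sensors DDX58 and IFIH1 and the effectors ISG15, IFIT1, IFIT3, OAS1, OAS2, MX1 and MX2. A row of the expression table was taken for each gene by its symbol, or by the symbol in its description, and of several rows with that symbol the annotated one with the highest mean was used. All 9 genes were found among the 30012 loci of the table. The genes were named with earlier results of these data in view, MX1 as a gene higher in ESC3.

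The study measured RNA of pig embryonic stem cells (ESCs) and of somatic cells in 12 libraries, 3 in each of 4 groups. The fibroblasts came from a fetus at day 30 after conception and were at passage 6. ESC3 and ESC7 are parthenogenetic lines, made from activated eggs without a sperm, and ESC11 is a line derived from an IVF embryo (in vitro fertilisation). Each ESC group is 1 line, so a difference between groups cannot be told apart from a difference between single lines. All ESCs were grown on feeder cells, in a medium with FGF2, ActA, CH, IWR-1 and, around passaging, Y-27632, and RNA was taken after magnetic sorting for SSEA1. The fibroblasts differ from the ESCs in cell type, origin and handling together, and their medium is not given in the sources used here. Separate cultures are named nowhere for the libraries of a group, so p-values reflect the variation among these libraries alone, and that may be technical.

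Cells detect viral RNA in the cytoplasm through the helicases RIG-I, made by DDX58, and MDA5, made by IFIH1, which pass the signal through the adaptor MAVS to transcription factors that start interferon genes. Interferon then acts on its receptors, and kinases such as JAK1 and TYK2 pass on the signal that turns on a large set of interferon-stimulated genes in the same and in neighbouring cells. Pluripotent stem cells are known as a cell type with a weak interferon response, whereas fibroblasts respond strongly.

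All 9 genes were lower in every ESC line than in fibroblasts, and for none of them did a library of any line reach the lowest fibroblast library. The level left in the ESCs differed widely between the genes. IFIT1, IFIT3 and OAS1 were at 0.240% to 1.201% of the fibroblast mean, MX2 and IFIH1 at 2.70% to 9.81%, and OAS2, ISG15 and DDX58 at 10.99% to 49.2%. MX1 did not keep to 1 such range: it was at 18.4% of the fibroblast mean in ESC3, at 26.0% in ESC11 and at 1.72% in ESC7.

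Levels are in FPKM, the fragments of a locus divided by its transcript length and by the number of mapped fragments, a scale per length on which genes can be compared. Differences are on the scale of log2(FPKM + 1) with the standard error (SE) from limma, a method that fits all loci together, and they understate the change of genes with a low level. A gene is called changed at a Benjamini-Hochberg adjusted p under 0.05 from limma's moderated test together with an absolute log2 difference of at least 1. On these terms 9 of 9 genes were called lower in ESC7 than in fibroblasts and 9 of 9 in ESC11, where 14.3% and 15.5% of the 18278 tested loci were called lower. MX1 counts in ESC7 as a description, since it was named for a difference that held against ESC7 alone. IFIT1, IFIT3, OAS1 and IFIH1 count in every line as a description, for the reason given with the filter below. In ESC3 the call was made for 7 of the 8 genes tested, beside 15.5% of all loci lower, since MX1 in comparisons of ESC3 is given as a description with no test. No overlap with the fibroblast libraries, in the lower direction, was also found for 29.4% of all loci in ESC3, 28.0% in ESC7 and 30.0% in ESC11. The median log2 difference of the genes was -3.06 in ESC3, -3.46 in ESC7 and -2.91 in ESC11, where that of all tested loci was 0.43, 0.45 and 0.39. The 3 comparisons share the same fibroblast libraries and are not independent of each other. In bulk RNA, fewer cells that make a transcript and less of it per cell cannot be told apart.

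A locus was tested if it reached an FPKM of 1 in at least 3 of the 12 libraries, and all 9 genes did. IFIT1, IFIT3, OAS1 and IFIH1 reached it through the fibroblast libraries alone and therefore had to differ, so the counts and medians above are a description, and no p is given for these 4 against fibroblasts. The other 5, MX1, MX2, ISG15, OAS2 and DDX58, also reached it in at least 3 ESC libraries.

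**Figure D1:**
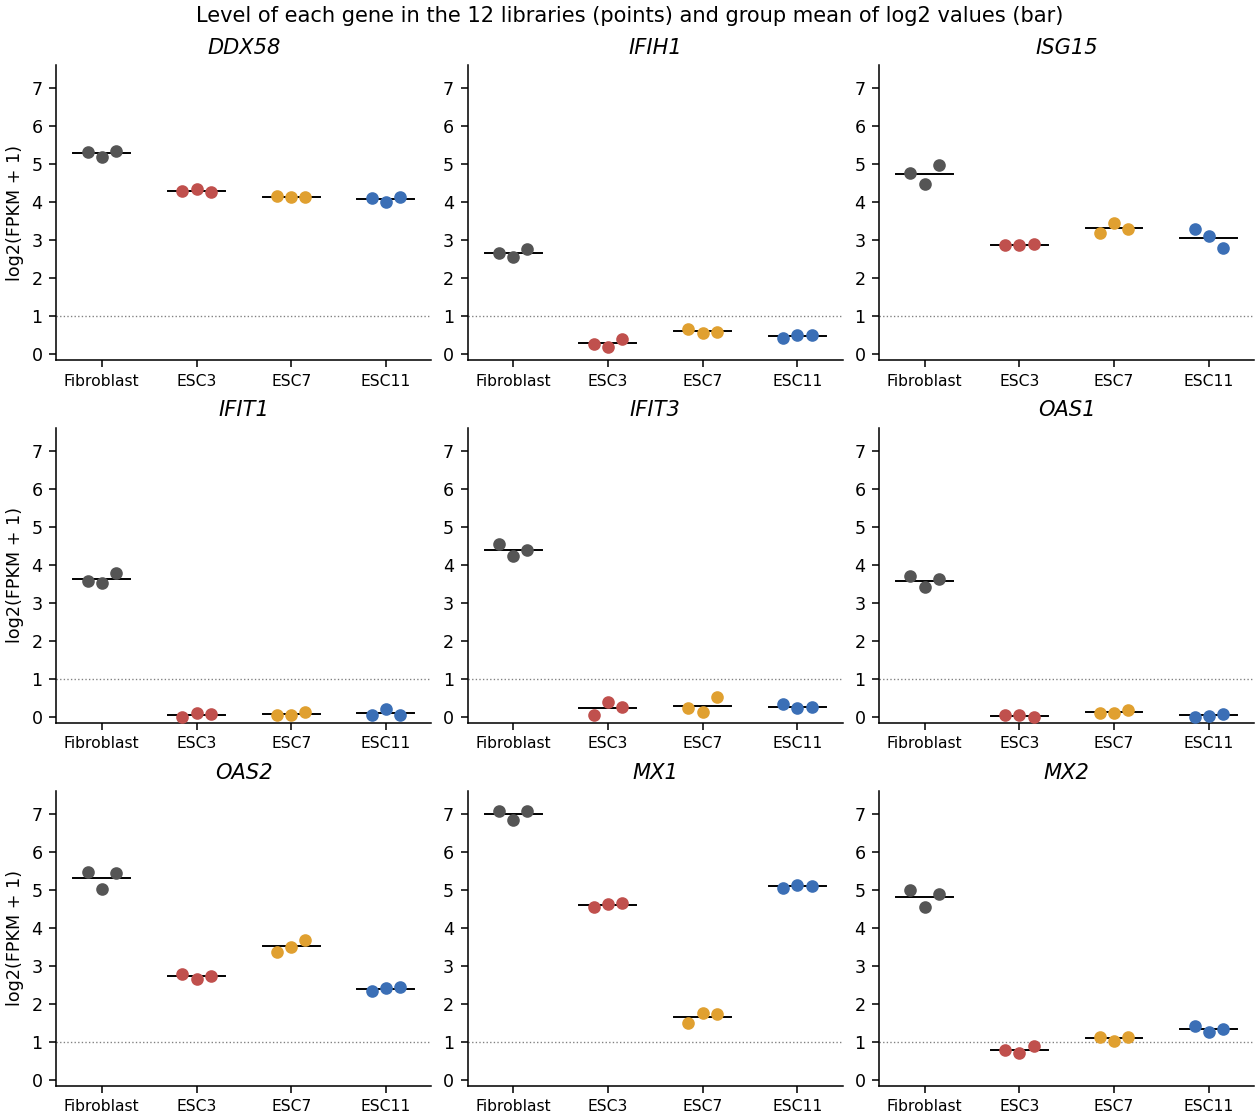
Level of the 9 genes as log2(FPKM + 1) in each library, with the 3 libraries of a group as points and their mean as a bar; the dotted line is an FPKM of 1. The fibroblast libraries lie above all ESC libraries for every gene, and MX1 is the gene whose ESC7 libraries lie far below those of ESC3 and ESC11.

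The 2 sensors differed in how much RNA the ESCs held. DDX58, which makes RIG-I, a sensor of short RNA with a 5′ triphosphate, was the gene with the least difference. Its FPKM was 39.2, 35.4 and 39.3 in the fibroblast libraries, 18.8, 19.2 and 18.1 in ESC3, 17.0, 16.4 and 16.6 in ESC7, with 16.3, 15.2 and 16.7 in ESC11. The groups of fibroblasts and ESCs did not overlap, and the 9 ESC libraries lay close together. The log2 difference from fibroblasts was -1.14 ± 0.05 (SE) in ESC7 (adjusted p = 3.96e-09) and -1.19 ± 0.05 in ESC11 (adjusted p = 2.71e-09). In ESC3 it was -0.98 ± 0.05 (adjusted p = 1.29e-08), just short of the fold minimum, so DDX58 was not called there. Without the fibroblast library 2 the ESC3 difference was -1.03 and without the ESC3 library 2 it was -1.002, each of them past the minimum, and so were the values after every rescaling of the libraries that was tried. The calls in the other lines were lost under 1 alternative each: with a pseudocount of 5 the difference was -0.99 in ESC7, and with the same summed FPKM it was -0.39 in ESC11 (adjusted p = 0.286). That scaling moved all loci: their median difference from fibroblasts in ESC11 was 1.11, where it was 0.39 unscaled.

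The row that stands for DDX58 is wide and not purely its own. It lies on chromosome 10, from 38118931 to 38201370 on the plus strand of build Sscrofa10.2, spans 82440 bp, and was assembled by the authors with an identifier of its own (XLOC_002585). It overlaps the row of ACO1, the iron-responsive aconitase on the opposite strand, by 6519 bp, and whether the reads were counted by strand is not stated. ACO1 ran the other way, at a mean FPKM of 40.9 ± 0.796 (SD, n = 3) in fibroblasts and 78.0 ± 2.63, 70.1 ± 2.69 and 78.9 ± 3.04 in ESC3, ESC7 and ESC11. TOPORS, the neighbour of DDX58 in the RefSeq annotation of Sscrofa11.1, has 2 rows in the table and both are listed at 0 in all libraries. The share of either gene's reads in the DDX58 values was not tested.

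IFIH1, which makes MDA5, a sensor of long double-stranded RNA, was near 0 in the ESCs. Its FPKM was 5.30, 4.92 and 5.78 in fibroblasts, 0.217, 0.144 and 0.327 in ESC3, 0.579, 0.483 and 0.507 in ESC7, with 0.345, 0.422 and 0.417 in ESC11. Fibroblasts stood apart from all lines. Within the lines the mean was highest in ESC7 and lowest in ESC3, but the 95% interval of ESC7 minus ESC11 was -0.03 to 0.28. The log2 difference from fibroblasts, a description since the filter fixed its direction, was -2.37 ± 0.07 in ESC3, -2.05 ± 0.07 in ESC7 and -2.18 ± 0.07 in ESC11. With a pseudocount of 5 in place of 1 these became -0.98, -0.90 and -0.94, under the fold minimum in each line. The gene lies on chromosome 15, from 76419369 to 76477401 on the minus strand.

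ISG15, a ubiquitin-like protein that is joined to other proteins during the interferon response, kept a clear level in the ESCs. Its FPKM was 26.1, 21.4 and 30.5 in fibroblasts, 6.29, 6.29 and 6.41 in ESC3, 8.11, 9.96 and 8.84 in ESC7, with 8.72, 7.68 and 5.96 in ESC11. The lowest fibroblast library was above the highest ESC library, and the ESC11 libraries spanned those of ESC3. The log2 difference from fibroblasts was -1.87 ± 0.14 (adjusted p = 3.26e-07) in ESC3, -1.43 ± 0.14 (adjusted p = 3.18e-06) in ESC7 and -1.67 ± 0.14 (adjusted p = 8.31e-07) in ESC11. After scaling all libraries to the same summed FPKM, which moved all loci as given for DDX58, the ESC11 difference was -0.92 and was no longer called. ISG15 sits on the unplaced scaffold GL895967.2, from 56959 to 59824 on the plus strand. An unannotated row on the opposite strand covers its whole length of 2866 bp, at mean FPKM of 1.49, 1.40, 1.91 and 1.60 in fibroblasts, ESC3, ESC7 and ESC11.

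The IFIT1 protein binds viral RNA that lacks the cap pattern of host messengers. IFIT1 had an FPKM of 10.9, 10.6 and 12.7 in the fibroblast libraries and between 0 and 0.165 in the 9 ESC libraries, of which 1 of ESC3 is listed at 0. IFIT3 had 22.5, 17.9 and 20.1 in fibroblasts and between 0.0474 and 0.432 in the ESCs. Both were close to absent from the ESCs, and the ESC lines overlapped each other for both. The log2 differences from fibroblasts were -3.57, -3.54 and -3.52 (SE 0.08) for IFIT1 in ESC3, ESC7 and ESC11, and -4.16, -4.09 and -4.12 (SE 0.12) for IFIT3. They are given without a test for the same reason. The 2 genes are neighbours on chromosome 14, IFIT3 from 110200854 to 110211306 and IFIT1 from 110223576 to 110235651, both on the plus strand.

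The OAS enzymes make 2′-5′ linked oligoadenylate when they meet double-stranded RNA. The 2 OAS genes went different ways within the ESCs although they lie side by side on chromosome 14. OAS1, from 41260566 to 41268847, had an FPKM of 12.04, 9.66 and 11.4 in fibroblasts and between 0 and 0.138 in the ESCs, where 1 library of ESC3 and 1 of ESC11 are listed at 0. OAS2, from 41196210 to 41208970, had 42.9, 31.5 and 41.99 in fibroblasts, 5.90, 5.24 and 5.65 in ESC3, 9.34, 10.17 and 11.7 in ESC7, with 4.04, 4.37 and 4.39 in ESC11. OAS2 therefore stayed well above 0 in all lines, whereas OAS1 did not reach an FPKM of 1 in any ESC library. The log2 differences from fibroblasts were -3.55, -3.46 and -3.54 (SE 0.07) for OAS1 in ESC3, ESC7 and ESC11, again with no test. For OAS2 they were -2.58, -1.79 and -2.91 (SE 0.11), with adjusted p of 3.73e-09, 7.96e-08 and 1.45e-09. The OAS1 row lies inside that of SLC8B1, a mitochondrial exchanger gene on the same strand, whose mean FPKM was 5.21 in fibroblasts and 3.73, 4.82 and 4.00 in ESC3, ESC7 and ESC11.

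The MX proteins are dynamin-like GTPases that block incoming viruses. MX1 and MX2 are neighbours on the minus strand of chromosome 13, MX1 from 214988891 to 215014757 and MX2 from 215026089 to 215059230. MX2 had an FPKM of 30.6, 22.2 and 28.4 in fibroblasts, 0.716, 0.627 and 0.847 in ESC3, 1.20, 1.01 and 1.17 in ESC7, with 1.67, 1.38 and 1.52 in ESC11. The means of its 3 lines stood in the order ESC11, ESC7, ESC3 from high to low. The log2 difference from fibroblasts was -4.01 ± 0.11 (adjusted p = 7.33e-11) in ESC3, -3.71 ± 0.11 (adjusted p = 1.38e-10) in ESC7 and -3.46 ± 0.11 (adjusted p = 2.29e-10) in ESC11.

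MX1 was the most abundant of the 9 genes in fibroblasts, in ESC3 and in ESC11, but not in ESC7. Its FPKM was 134, 113 and 134 in the fibroblast libraries, 22.2, 23.7 and 24.1 in ESC3, 1.83, 2.39 and 2.31 in ESC7, with 32.2, 33.9 and 32.9 in ESC11. The means of the 4 groups stood in the order fibroblasts, ESC11, ESC3, ESC7 from high to low. A higher MX1 in ESC3 therefore held against ESC7 alone: the ESC3 mean was 10.7-fold that of ESC7, but ESC11 was 1.41-fold above ESC3 and fibroblasts were 5.44-fold above it. The log2 difference from fibroblasts was -2.39 in ESC3 and -5.33 ± 0.08 in ESC7, both as a description, and -1.91 ± 0.08 in ESC11 (adjusted p = 2.85e-09). MX1 was named for a difference that held against ESC7 alone, so its comparisons of ESC7 are given with no p. On this scale MX1 in ESC7 had the largest difference from fibroblasts among these genes and lines, although by the ratio of means its 58.3-fold was below that of OAS1, IFIT1 and IFIT3. The adjacent MX2 had its ESC7 level between those of the other 2 lines. A second row named MX1 is listed at 0 in all libraries.

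**Figure D2:**
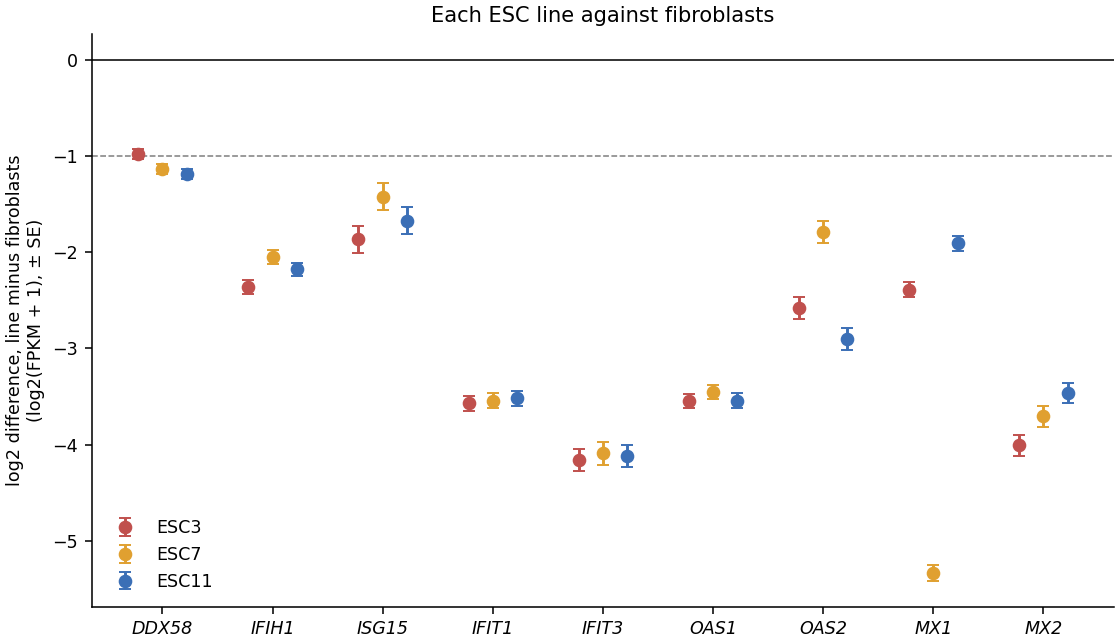
Difference of each ESC line from fibroblasts for the 9 genes, in log2(FPKM + 1), as points with bars of 1 SE; the dashed line is the fold minimum of a call. All points lie below 0, DDX58 lies at the fold minimum with -0.98 to -1.19, and MX1 spreads from -1.91 in ESC11 to -5.33 in ESC7.

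Between the ESC lines only MX1 and OAS2 reached the fold minimum on this scale, which understates changes at low levels. By the ratio of means, MX2 was 2.09-fold higher in ESC11 than in ESC3. IFIH1 was 2.28-fold and OAS1, near 0, 3.49-fold higher in ESC7 than in ESC3. OAS2 was higher in ESC7 than in ESC11 by 1.11 ± 0.11 on the log2 scale (adjusted p = 6.34e-05), a 2.44-fold difference of the means, and was called. This call was lost with a pseudocount of 5 (0.73), with scaling to the same summed FPKM (0.21) and with the same scaling over loci of 300 bp and longer (0.78). OAS2 was also higher in ESC7 than in ESC3, by 0.79 ± 0.11 (adjusted p = 3.76e-04), which is under the fold minimum with a 95% interval of 0.53 to 1.04. As a description, MX1 was lower in ESC7 than in ESC11 by a log2 difference of -3.42 ± 0.08. It was also lower in ESC7 than in ESC3 by -2.94 and lower in ESC3 than in ESC11 by -0.48. It was therefore lowest in the line in which OAS2 was highest.

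In counts, 2 of 9 genes passed the limits of a call between ESC7 and ESC11, OAS2 higher and MX1 lower, beside 2.94% of all loci, 2.14% higher and 0.799% lower. The part of MX1 in this count is a description. With MX1 left out, limma's moderated test called 0 of 8 genes between ESC3 and ESC11, beside 2.48% of all loci, and 0 of 8 between ESC7 and ESC3, beside 3.38% of all loci. IFIT1, IFIT3, OAS1 and IFIH1 stayed under an FPKM of 1 in every ESC library. On this scale they could not reach the fold minimum between lines, so the absence of a call says nothing about them. At an unadjusted p under 0.05 from limma's moderated test, the counts for ESC3 minus ESC11 and ESC7 minus ESC3 were 4 of 8 and 5 of 8. That is beside 35.2% and 47.6% of all loci. At an adjusted p under 0.05 they were 2 of 8 and 5 of 8, beside 23.0% and 39.9%. For ESC7 minus ESC11, with MX1 counted as a description, they were 3 of 9 unadjusted and 2 of 9 adjusted, beside 41.3% and 30.9%. MX2 was lower in ESC3 than in ESC11 by -0.54 ± 0.11 (adjusted p = 0.00528) and DDX58 was higher there by 0.21 ± 0.05 (adjusted p = 0.0143). IFIH1 was higher in ESC7 than in ESC3 by 0.31 ± 0.07 (adjusted p = 0.00589), ISG15 by 0.44 ± 0.14 (adjusted p = 0.0301) and MX2 by 0.30 ± 0.11 (adjusted p = 0.0480). DDX58 was lower in ESC7 than in ESC3 by -0.16 ± 0.05 (adjusted p = 0.0314), and the signs of its differences of ESC3 from ESC7 and from ESC11 both turned with scaling to the same summed FPKM. Some neighbouring lines could not be told apart. For ISG15 the 95% interval of ESC3 minus ESC11 was -0.50 to 0.12, and for IFIH1 that of ESC7 minus ESC11 was -0.03 to 0.28. For IFIT1, IFIT3 and OAS1 the adjusted p between lines was at least 0.38, at levels too low to order the lines.

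**Figure D3:**
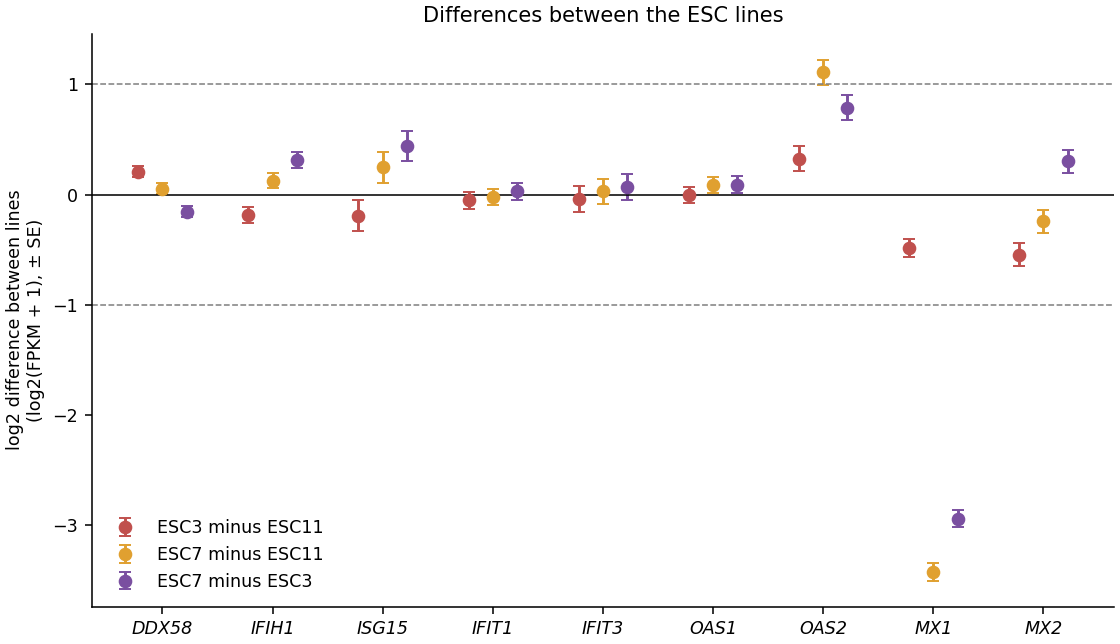
Differences between the ESC lines for the 9 genes, in log2(FPKM + 1), as points with bars of 1 SE; the dashed lines are the fold minimum of a call in each direction. Most points lie within the dashed lines; MX1 falls to -3.42 and -2.94 in the 2 comparisons of ESC7, and OAS2 reaches 1.11 in ESC7 against ESC11.

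ESC7 had the highest mean of the 3 lines for 5 of the 9 genes, and ESC3 the lowest for 6. ESC7 was also the highest line for 43.7% of all tested loci and ESC3 the lowest for 36.0%. Depth moved with this order in part, since the ESC3 libraries were the shallowest, and its part was not tested.

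The genes most like MX1 across the 12 libraries were not members of the interferon system. By Pearson correlation on the log2(FPKM + 1) scale, over 13133 annotated loci with a symbol, the closest were DESI2 (r = 0.98), ZDHHC24 (0.97), SMAD7 (0.97), TRAPPC3 (0.97) and FYN (0.97). These share the order of MX1, with fibroblasts highest and ESC7 lowest: SMAD7, an inhibitor of TGF-beta signalling, had mean FPKM of 12.6 in fibroblasts, 8.68 in ESC3, 5.36 in ESC7 and 9.07 in ESC11. TRAPPC3, a vesicle tethering subunit, had 17.7, 7.99, 3.54 and 8.18 in the same order. Of the other 8 genes described here, DDX58 came closest, at rank 969 with r = 0.73, and OAS2 was farthest, at rank 3396 with r = 0.44. The correlations are descriptions: the 12 libraries fall into 4 groups that stand apart and share their depth.

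The rest of the interferon pathway was described by 6 lists with 119 genes, of which 101 were in the table and 84 were tested. Among these 84 genes, 49 were lower and 8 higher in ESC3 than in fibroblasts, 41 lower and 11 higher in ESC7, and 46 lower and 9 higher in ESC11. Lower calls thus made up 58.3%, 48.8% and 54.8% of the tested pathway genes, where they made up 15.5%, 14.3% and 15.5% of all loci. The 28.6%, 29.2% and 27.4% of all loci that were called higher stand beside 9.52%, 13.1% and 10.7% of the pathway genes. Many of these genes were low in the ESCs and passed the filter through the fibroblasts, so the shares are a description.

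Interferons themselves were hardly seen in any group. Of 10 ligand genes listed, 6 were in the table and only IFNW1 reached the filter, with 1.85 FPKM in its highest library and no call. IFNB1, the fibroblast interferon, was at a mean of 0.218 FPKM in fibroblasts and listed at 0 in all 9 ESC libraries. IFNG was listed at 0 in all 12.

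Of the receptors, 5 were tested, and 2, 2 and 3 were lower in ESC3, ESC7 and ESC11 and 1 higher in each. IFNGR1, a chain of the interferon gamma receptor, fell from 14.7 ± 0.678 FPKM (SD, n = 3) in fibroblasts to 2.06 ± 0.293 in ESC3, 2.96 ± 0.445 in ESC7 and 3.36 ± 0.264 in ESC11. IFNLR1, a chain of the interferon lambda receptor, ran the other way: it was listed at 0 in fibroblasts and was at 1.67, 1.83 and 1.35 FPKM in ESC3, ESC7 and ESC11. IFNAR1 and IL10RB are represented by unannotated rows of 129 bp and 167 bp, whose values are in part very high, such as 20682 ± 6609 FPKM for IFNAR1 in fibroblasts. Such short rows are not a measure of the receptor messenger, although IFNAR1 was called lower in each line and IL10RB in ESC11.

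Among the 11 tested kinases and transcription factors of the pathway, 6, 5 and 5 were lower in ESC3, ESC7 and ESC11 and 1 was higher in each. JAK1, the kinase shared by all interferon receptors, was at 80.3 ± 0.980 FPKM in fibroblasts and 5.59 ± 0.574, 10.4 ± 0.728 and 8.28 ± 0.501 in ESC3, ESC7 and ESC11, log2 differences of -3.63, -2.83 and -3.13. IRF2, a transcription factor of the interferon regulatory family, was at 10.8 ± 1.07 in fibroblasts against 1.14, 4.06 and 1.95 in the lines. Both were called lower in each line. IRF8 was the gene called higher, listed at 0 in fibroblasts and at 4.57, 4.74 and 3.72 in ESC3, ESC7 and ESC11. IRF3, the factor below MAVS, named here after its values were seen, was not called, at 16.1 FPKM in fibroblasts and 13.7, 18.3 and 16.1 in the lines.

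Of the 18 tested genes for nucleic acid sensing and its adaptors, 10, 9 and 10 were lower in ESC3, ESC7 and ESC11 and 2, 2 and 1 higher. TRIM25, the ubiquitin ligase that acts on RIG-I, was at 25.9 ± 4.08 FPKM in fibroblasts and 0.215, 0.337 and 0.144 in ESC3, ESC7 and ESC11. TLR3, the endosomal sensor of double-stranded RNA, was at 11.2 ± 0.562 in fibroblasts and 0.0501, 0.134 and 0.0808 in the lines. The toll-like receptor adaptor MYD88 was at 28.4 ± 1.26 and 2.67, 4.58 and 0.695. These 3 were called lower in each line. TANK, a scaffold of the kinase TBK1, was higher in ESC3 by 1.10 and in ESC7 by 1.02 on the log2 scale, but under every rescaling tried it was not called, with 0.46 to 0.84 in ESC3 and 0.61 to 0.82 in ESC7. TLR7 was also called higher in each line, with 32.3 FPKM in fibroblasts and 134, 94.9 and 160 in ESC3, ESC7 and ESC11. Its row spans 105371 bp, and TMSB4X, a nearby gene in the RefSeq annotation of Sscrofa11.1, is listed at 0. Whether the values are those of TLR7 alone was not tested. The adaptor MAVS, named after its values were seen, was not called, at 25.7 in fibroblasts and 19.9, 32.3 and 21.4 in the lines.

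The list of other interferon-stimulated genes was the most one-sided, with 27, 23 and 26 of 36 tested genes lower in ESC3, ESC7 and ESC11 and 1 higher in each. Its median log2 difference was -2.01, -1.56 and -1.79. RSAD2, which makes the antiviral viperin, had 24.7 ± 3.24 FPKM in fibroblasts, 0.0179 in ESC3, and is listed at 0 in all libraries of ESC7 and ESC11. IFI44 had 32.4 ± 3.19 in fibroblasts and 0.208, 1.10 and 0.178 in ESC3, ESC7 and ESC11, and IFI44L 40.7 ± 2.27 and 0.374, 2.00 and 0.779. The gene called higher was HERC5, the ligase that joins ISG15 to its targets, with 12.7 ± 0.925 FPKM in fibroblasts and 132 ± 6.26, 170 ± 7.54 and 124 ± 3.85 in ESC3, ESC7 and ESC11. In the ESCs the ligase was therefore higher than in fibroblasts, where ISG15 itself was lower. A second row named HERC5, on a scaffold, was not used.

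Negative regulators went in both directions: of 13 tested, 3, 6 and 5 were higher and 4, 2 and 2 lower in ESC3, ESC7 and ESC11. Of all loci, 28.6%, 29.2% and 27.4% were called higher and 15.5%, 14.3% and 15.5% lower. With the libraries scaled by median ratios, which moves the median of all loci from 0.43 to 0.06 in ESC3, the counts were 3, 3 and 4 higher and 4, 4 and 3 lower. USP18, which removes ISG15 from proteins and blocks the interferon alpha receptor, is itself induced by interferon and was lower in each line, at 88.0 ± 9.15 FPKM in fibroblasts and 2.65 ± 0.273, 15.6 ± 0.875 and 8.54 ± 0.508 in ESC3, ESC7 and ESC11. CYLD, a deubiquitinase, was lower in each line, at 10.6 against 3.14, 3.94 and 3.45. With a pseudocount of 5 the calls of CYLD, IFNLR1 and IRF8 were lost in every line. NLRC5 was called lower in ESC3 alone, by -1.10 (adjusted p = 0.0313), on a row of 1983 bp. TRIM24, a repressor of retinoid-driven interferon genes, was at 3.06 ± 0.559 in fibroblasts and 104 ± 5.31, 94.7 ± 5.71 and 64.7 ± 2.87 in the lines. RNF125, a ligase that marks RIG-I for breakdown, was at 6.73 ± 0.449 and 26.7 ± 2.97, 22.3 ± 2.76 and 20.4 ± 0.943, and both were called higher in each line. DUSP5, a phosphatase, was called higher in ESC7 and ESC11, with 15.5 in fibroblasts and 31.0, 66.9 and 55.4 in ESC3, ESC7 and ESC11. It was counted here by its place on the list, and a part of DUSP5 in interferon signalling was not tested.

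**Figure D4:**
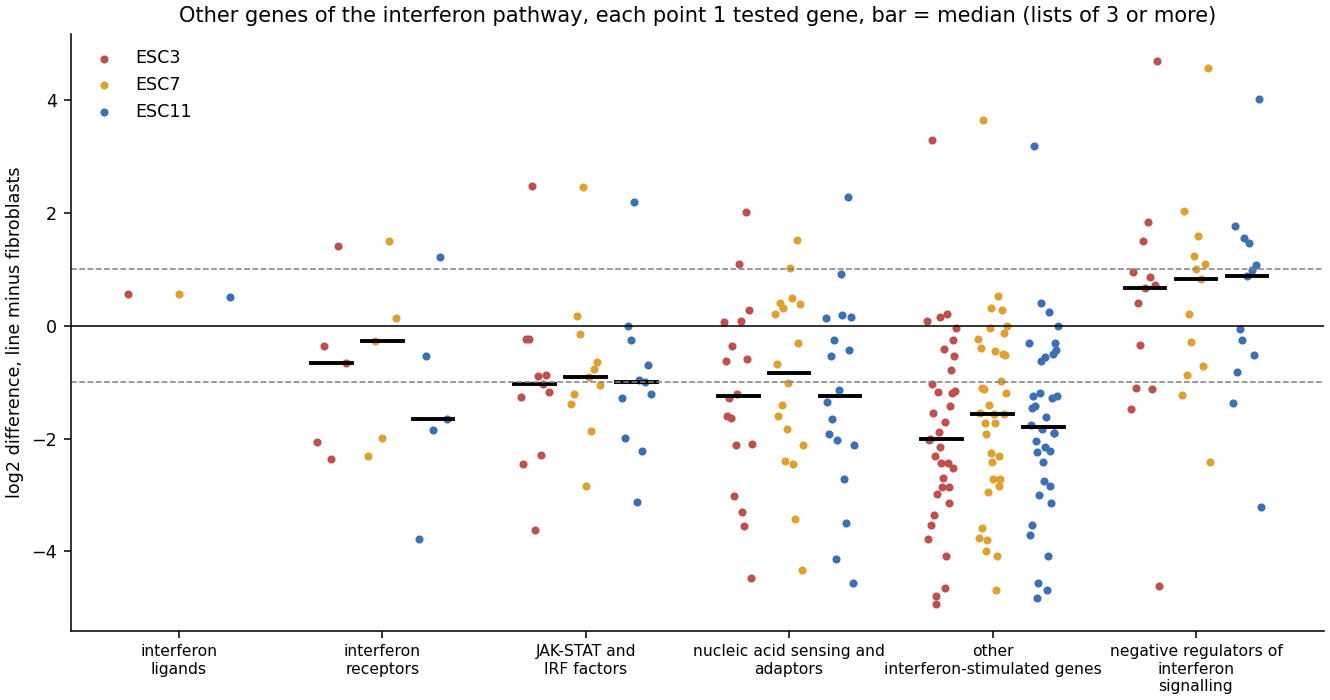
Difference of each ESC line from fibroblasts, in log2(FPKM + 1), for the 84 other tested genes of the interferon pathway, 1 point a gene, by list; bars are medians of lists with at least 3 genes and dashed lines the fold minimum of a call. The list of other interferon-stimulated genes has medians of -2.01, -1.56 and -1.79, and the negative regulators have medians of 0.67, 0.83 and 0.88 in ESC3, ESC7 and ESC11. The medians of all tested loci are 0.43, 0.45 and 0.39, and with quantile normalization those of the negative regulators are 0.15, 0.29 and 0.31.

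Between the ESC lines the pathway genes differed mostly in 1 direction. Against ESC3, 10 of 84 were called higher in ESC7 and 0 lower, which is 11.9% beside 2.34% of all loci called higher. Against ESC11, 5 were higher in ESC7 and 0 lower, which is 5.95% beside 2.14% of all loci called higher and 0.799% called lower. IFNAR1, IL10RB and EPSTI1, on unannotated rows, are among the 5. Over annotated loci alone 2 of 81 were higher and 0 lower, beside 125 and 80 of 13185 loci. In ESC3 against ESC11, 2 were higher and 3 lower, beside 1.49% and 0.996% of all loci, and 1.04% of all loci were lower in ESC7 than in ESC3. ESC7 had the highest mean of the 3 lines for 54 of the 84 genes, or 64.3%, beside 43.7% of all loci. The alternatives without a left-out library gave 4 to 16 genes higher in ESC7 than in ESC3 and 0 lower. The comparisons with ESC11 depended on the scale: with the same summed FPKM they became 1 higher and 8 lower in ESC7, and 0 higher and 46 lower in ESC3. All loci moved with that scaling, which called 32.1% of them lower in ESC7 and 67.0% lower in ESC3 than in ESC11.

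EIF2AK2, which makes the RNA-activated kinase PKR, was the sensor with the clearest gap between lines, at 7.48 ± 0.453 FPKM in ESC3, 26.3 ± 1.19 in ESC7 and 13.2 ± 0.656 in ESC11, beside 19.6 ± 0.831 in fibroblasts. ESC7 was above ESC3 by 1.69 ± 0.06 on the log2 scale (adjusted p = 1.58e-08). IFITM1, a membrane protein that blocks virus entry, was at 39.1 ± 7.48 in ESC3, 142 ± 7.29 in ESC7 and 94.4 ± 3.09 in ESC11, beside 145 ± 4.96 in fibroblasts, so that ESC7 and fibroblasts were near each other. The same order of lines, ESC3 lowest and ESC7 highest, was found for IFI30, a lysosomal reductase, with 9.57, 31.5 and 25.3 in ESC3, ESC7 and ESC11. It was also found for EPSTI1 with 1.51, 6.63 and 2.65, for TDRD7 with 5.08, 11.7 and 6.44, and for USP18. TRIM21, an intracellular antibody receptor, differed in that ESC11 was lowest, with 4.18, 7.31 and 2.16. Of the 9 genes 5 also had their highest ESC mean in ESC7: OAS2, ISG15, IFIH1 and, at levels too low to order the lines, IFIT3 and OAS1. MX1 alone was lowest there.

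Marker genes gave the labelled cell types. The summed FPKM of 12 fibroblast and feeder markers was 20094 to 20423 in fibroblasts and 93.4 to 137 in the ESC libraries, and that of 8 markers of undifferentiated ESCs was 1.31 to 1.74 and 3288 to 3461. COL1A1 had a mean of 5307 FPKM in fibroblasts and 16.6, 14.8 and 13.0 in ESC3, ESC7 and ESC11. For 12 immune cell markers the sum was 5.83 to 6.63 in fibroblasts and 1.59 to 2.71 in ESCs, with the leukocyte marker PTPRC listed at 0 in fibroblasts and ESC3. For 5 endothelial markers it was 6.08 to 6.88 and 1.11 to 2.74. For trophectoderm and extraembryonic endoderm markers without rows under 300 bp it was 12.9 to 13.9 and 1.12 to 3.49, and the mean of CDX2 was at most 0.00929. These sums move with the groups, and their part in the differences was not tested. The total depth is unknown, but the low values in the table fall on steps of whole fragments and put the libraries at 0.74 to 1.21 of the depth of the first fibroblast library, with ESC3 at the low end.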

How the data were processed

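RNA of 12 libraries (polyA RNA, TruSeq kits, 100 bp paired ends, per the labels) is given as FPKM computed by the authors, in 1 deposited table of 30012 loci. STAR (2.4.0b), the build Sscrofa10.2 and Cufflinks (2.1.1) appear in the submitters' processing notes with no role given. Read counts, strandedness and total depth are not given in the sources used here, so no counting interval is printed.

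Values were used as log2(FPKM + 1) without rescaling. The 18278 loci that reached an FPKM of 1 in 3 or more libraries were fitted with limma 3.58.1 in R 4.3.3, as group means over all 12 libraries with variances that followed the mean level. Tests are two-sided, p-values are adjusted over all tested loci of a comparison, and a call needs an adjusted p under 0.05 and a log2 difference of at least 1. Errors of FPKM values are standard deviations of 3 libraries. On simulated data made from these libraries the fit recovered 93 of 100 loci moved by 1.5 and 96 of 100 moved by 2 on the log2 scale in ESC3 against fibroblasts, with 1 false call among 18078 unchanged loci. The moved loci were drawn from those with a mean log2(FPKM + 1) above 3, with normal noise and the same starting level in all groups. The rates do not cover genes at lower levels, such as IFIT1, IFIT3, OAS1, IFIH1 and MX2 in the ESCs.

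The 9 genes, the pathway lists and the marker lists were chosen with earlier results of these data known. In the pathway lists the text names up to 3 genes called in each direction against fibroblasts, and each gene called between lines if its higher line had a mean FPKM of 5 or more. Genes outside that rule are said to be chosen after their values were seen. Not every gene named by the rule is reported here. For a symbol with several rows, annotated rows were preferred. Of 25 alternatives, 23 were planned and 2 were added after the data were seen (scaling to the same sum over loci of 300 bp and longer, and annotated loci alone). No other chance test was made. In the 66 pairs of libraries at most 2 loci had exactly equal values above 0. Other steps used Python 3.11.15 with numpy 2.4.6, matplotlib 3.10.9 and pandas 2.3.3.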

Additional observations from a re-analysis of the deposited data

Results flagged for a closer look

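Some genes differed between 2 ESC lines by limma's moderated test with a call, and the log2 differences are given here with no cause tested. MX1, as a description, was lower in ESC7 than in ESC11 by -3.42, and OAS2 was higher by 1.11. IFNAR1, on its row of 129 bp, was higher than in ESC11 by 1.72 in ESC3 and by 1.46 in ESC7, and IL10RB, on its row of 167 bp, was higher in ESC7 than in ESC11 by 1.78. EIF2AK2 was higher in ESC7 than in ESC3 by 1.69, and a second row with its symbol lies on the opposite strand. IFITM1 was lower in ESC3 than in ESC11 by -1.27 and higher in ESC7 than in ESC3 by 1.85. IFI30 was lower in ESC3 than in ESC11 by -1.32 and higher in ESC7 than in ESC3 by 1.63. USP18 was lower in ESC3 than in ESC11 by -1.39 and higher in ESC7 than in ESC3 by 2.19. TRIM21 was higher in ESC7 than in ESC11 by 1.40. EPSTI1, on an unannotated row, was higher in ESC7 than in ESC11 by 1.07 and than in ESC3 by 1.61. TDRD7 and DUSP5 were higher in ESC7 than in ESC3 by 1.07 and 1.08. With a pseudocount of 5 the calls of OAS2, TRIM21, EPSTI1, TDRD7, DUSP5 and, for ESC3 minus ESC11, USP18 were lost. With the same summed FPKM those of OAS2, IFNAR1, IL10RB, TRIM21 and EPSTI1 against ESC11 were lost. The same sum over loci of 300 bp and longer lost those of OAS2, IFNAR1 and EPSTI1 against ESC11. Quantile normalization lost those of IFNAR1 against ESC11, with 0.72 in ESC3 and 0.74 in ESC7. It also lost those of EPSTI1 in ESC7 minus ESC11 (0.993) and of TDRD7 in ESC7 minus ESC3 (0.992).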

How the results depend on the processing

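The 9 genes stayed lower than in fibroblasts in each line under the 25 alternatives, except that IFIH1 was not tested with a filter of FPKM 5. This is a description for MX1 in ESC3 and ESC7 and for IFIT1, IFIT3, OAS1 and IFIH1, whose direction the filter fixed. The least difference was -0.39, for DDX58 in ESC11 with the same summed FPKM. Loci called against fibroblasts in ESC3, ESC7 and ESC11 fell from 8062, 7941 and 7847 to 4714, 4494 and 4521 with a pseudocount of 5. For ESC3 minus ESC11, ESC7 minus ESC11 and ESC7 minus ESC3, 454, 537 and 618 loci became 264, 248 and 219 with that pseudocount, 747, 904 and 1148 with 0.1, and 163, 205 and 320 over annotated loci alone. The same summed FPKM gave 12333 and 6025 in the first 2, the same sum over loci of 300 bp and longer 1309 in the first and 929 in the last, and a filter of FPKM 5 387 in the last. Of the genes described, with MX1 left out of comparisons of ESC3, the same sum called 3 of 8 for ESC3 minus ESC11 and 1 of 9 for ESC7 minus ESC11. For ESC7 minus ESC11 a pseudocount of 5 and the same sum over longer loci called 1 each, and the latter called 1 for ESC7 minus ESC3. Against fibroblasts quantile normalization gave 3624 higher and 3515 lower loci for ESC3, 3413 and 3511 for ESC7 and 3605 and 3498 for ESC11, where the unscaled values gave 5230 and 2832, 5330 and 2611, and 5007 and 2840. Median ratios gave 3577 and 3845, 3704 and 3614, and 3545 and 3789, and the same sum 3170 and 3904, 4331 and 2977, and 9888 and 1878. Loci under 300 bp held from 54.8% (ESC11 library 3) to 80.6% (fibroblast library 2) of the summed FPKM of a library.

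Leaving out 1 library gave 8026 to 8101, 7876 to 7973 and 7795 to 7891 loci against fibroblasts and 393 to 472, 476 to 565 and 607 to 644 between lines, with 7 to 8 of 8, 9 of 9, 9 of 9, 0 of 8, 2 of 9 and 0 of 8 genes called, MX1 being left out of comparisons of ESC3. The counts of genes hold MX1 in ESC7 and, against fibroblasts, IFIT1, IFIT3, OAS1 and IFIH1 as descriptions. Replicate numbers did not pair the libraries: deviations of same-numbered libraries correlated at -0.090 to 0.087. A replicate block gave 8058, 7932, 7843, 445, 532 and 615 loci and changed no call of the 9 genes.

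Signs turned for differences between lines that had not been called. For ESC3 minus ESC11, the same sum gave -0.80 for OAS2 and -1.07 for DDX58, and over longer loci -0.29 and -0.49. Quantile normalization gave 0.028 for IFIT3 and 0.027 for OAS1, and leaving out a library gave -0.081 to 0.0015 for IFIT1, -0.117 to 0.044 for IFIT3 and -0.025 to 0.020 for OAS1. For ESC7 minus ESC11, the same sum gave -0.69 for ISG15, -0.20 for IFIT3, -0.94 for DDX58 and -0.23 for IFIH1, and over longer loci -0.096, -0.056 and -0.32 for the first 3. Quantile normalization gave -0.016 for IFIT3 and -0.013 for DDX58, and leaving out a library -0.052 to 0.031 for IFIT1 and -0.079 to 0.107 for IFIT3. For ESC7 minus ESC3, quantile normalization gave -0.030 for IFIT1 and -0.044 for IFIT3, leaving out a library -0.039 to 0.147 for IFIT3, and the 2 sums 0.13 and 0.17 for DDX58. The cause was not tested. Values near 0 FPKM rest on few fragments, so the order of the lines was not detectable for IFIT1, IFIT3 and OAS1.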

Other observations

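The fibroblast library 2 was the lowest of the 3 fibroblast libraries for all 9 genes, a pattern seen after the values were known and not tested. For MX1 it held 113 FPKM where the others held 134, and for OAS2 31.5 where they held 42.9 and 41.99. The same library was the lowest for 52 of 82 pathway genes with unequal values in fibroblasts, or 63.4%, and for 36.3% of 17574 such loci in all. IFNB1 had its highest value of all libraries there, at 0.487 FPKM. In none of the 3 ESC lines was 1 library the lowest for more than 6 of the 9 genes.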
